A study of Mus musculus with 6 samples.

Results

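A group of 10 genes that set vascular tone was followed in the aortic arch of bone marrow chimeric mice. They were the nitric oxide synthases Nos1 and Nos3, the peptide endothelin-1 (Edn1) and its receptors Ednra and Ednrb, the angiotensin-converting enzyme Ace and the angiotensin II receptor Agtr1a, the soluble guanylate cyclase subunits Gucy1a3 and Gucy1b3, and the prostacyclin synthase Ptgis. The members were all probes on an Agilent one-colour mouse array whose deposited gene name was 1 of these 10 symbols. That gave 10 of the 34821 gene names on the array and 14 of its 55681 probes that were not controls, with 2 probes each for 4 genes (Nos1, Nos3, Ednrb and Ptgis) and 1 probe each for the others. Of the 14, 12 could be tested, and these covered all 10 genes.

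The arrays held total RNA from 6 aortic arches of female C57BL/6 mice, with 3 mice in each group. All 6 recipients were Mir21+/+, received whole-body X-rays in 2 doses of 5 Gy within 4 h, were injected with marrow a day later, and ate a high-fat diet (HFD) for 12 weeks that started 3 weeks after irradiation. The groups differed in the donor: Mir21+/+ marrow (wild-type marrow, arrays WT1 to WT3) or Mir21–/– marrow (knockout marrow, arrays KO1 to KO3). The host cells were Mir21+/+ in both groups, no unirradiated or chow-fed mouse was among the 6, and the labels name no further allele. The labels do not state the time of day of sampling, and the loss of Mir21 in the marrow was not checked on these arrays.

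In arteries, endothelial nitric oxide synthase makes nitric oxide, which diffuses into the underlying smooth muscle and activates soluble guanylate cyclase, a heterodimer of an alpha and a beta subunit. The cyclic GMP that it forms relaxes the muscle. Prostacyclin, made by prostacyclin synthase, also relaxes the muscle and restrains platelets. Endothelin-1, acting through the ET-A receptor (Ednra), and angiotensin II, released by Ace and acting through the AT1 receptor (Agtr1a), contract it. The ET-B receptor (Ednrb) on endothelium clears endothelin and promotes nitric oxide release.

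Each probe is a 60-base DNA, and each gene's level is read at that short stretch alone. Where a gene had 2 probes these lay apart on mm9, the build of the deposited coordinates: the starts of the pairs were 402 bases apart in Nos3, 1475 in Nos1, 6386 in Ednrb and 11379 in Ptgis. The second probes of Nos1, Nos3 and Ednrb are shown because they give a reading of the gene apart from the first: at Nos1 it was too dim to test, at Nos3 it was printed in 10 spots, and at Ednrb it is the one that could be tested. They lie at chr5:118402831-118402890 on the plus strand (Nos1), chr5:23889636-23889695 on the plus strand (Nos3) and chr14:104220870-104220929 on the minus strand (Ednrb).
Nos1 probe 2: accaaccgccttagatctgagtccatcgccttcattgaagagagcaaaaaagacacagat
Nos3 probe 2: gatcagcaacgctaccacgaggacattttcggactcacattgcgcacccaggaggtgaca
Ednrb probe 2: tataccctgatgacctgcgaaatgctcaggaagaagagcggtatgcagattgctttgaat
Capitals are not used in these 3 sequences, since no part of them was singled out. Exon and UTR annotation of mm9 was not used here.

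The arrays were on 1 slide and were scanned once. The wild-type arrays lay in row 1 of the slide (columns 1, 2 and 3) and the knockout arrays in row 2 (columns 1, 2 and 4). Slide row and donor genotype therefore cannot be told apart. Between 66.4% and 74.4% of spots were well above background and none was saturated. KO3 was the dimmest array, with a 75th percentile of 239 intensity units against 329 to 407 on the other five, and its correlation with the wild-type arrays over probes (0.966 to 0.981) was below that of KO1 and KO2 with each of them. Values below are log2 signals after each array's 75th percentile was subtracted, called relative log2 levels, and each difference is knockout minus wild-type, with its standard error (SE) from limma's moderated test. Values of a group are listed in the order of its replicates 1, 2 and 3. Adjusted p is Benjamini-Hochberg over the 38341 probes tested.

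None of the 12 tested member probes differed between the groups at an adjusted p below 0.05, none had an unadjusted p below 0.05, and at none did the arrays of the groups fail to overlap. Over the whole array, 0.00261% of probes passed the adjusted test (1 probe), 8.71% had an unadjusted p below 0.05, and the groups were fully separated with the knockout arrays above at 7.58% and below at 6.14%. The adjusted p of the members ran from 0.73 to 0.95, and all 12 of the 95% intervals held 0. Of the 12 differences 7 were above 0 and 5 below, with a median of 0.12 against 0.021 over all tested probes, of which 53.2% were above 0. That split rested on the scaling: 10 of 12 were above 0 after the mean of the endothelial markers was subtracted from each array, which moved the median of all probes to 0.23, and 1 of 12 after the smooth muscle mean was subtracted, which moved it to -0.32. Leaving out KO1, 4 of 12 members (Edn1, Agtr1a, Gucy1a3 and Gucy1b3) had an unadjusted p below 0.05, beside 17.9% of all probes, and none an adjusted p below 0.05. The labels do not say whether mice of a group shared a litter or cage, and p-values measure the spread between these 6 arches.

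**Figure D1:**
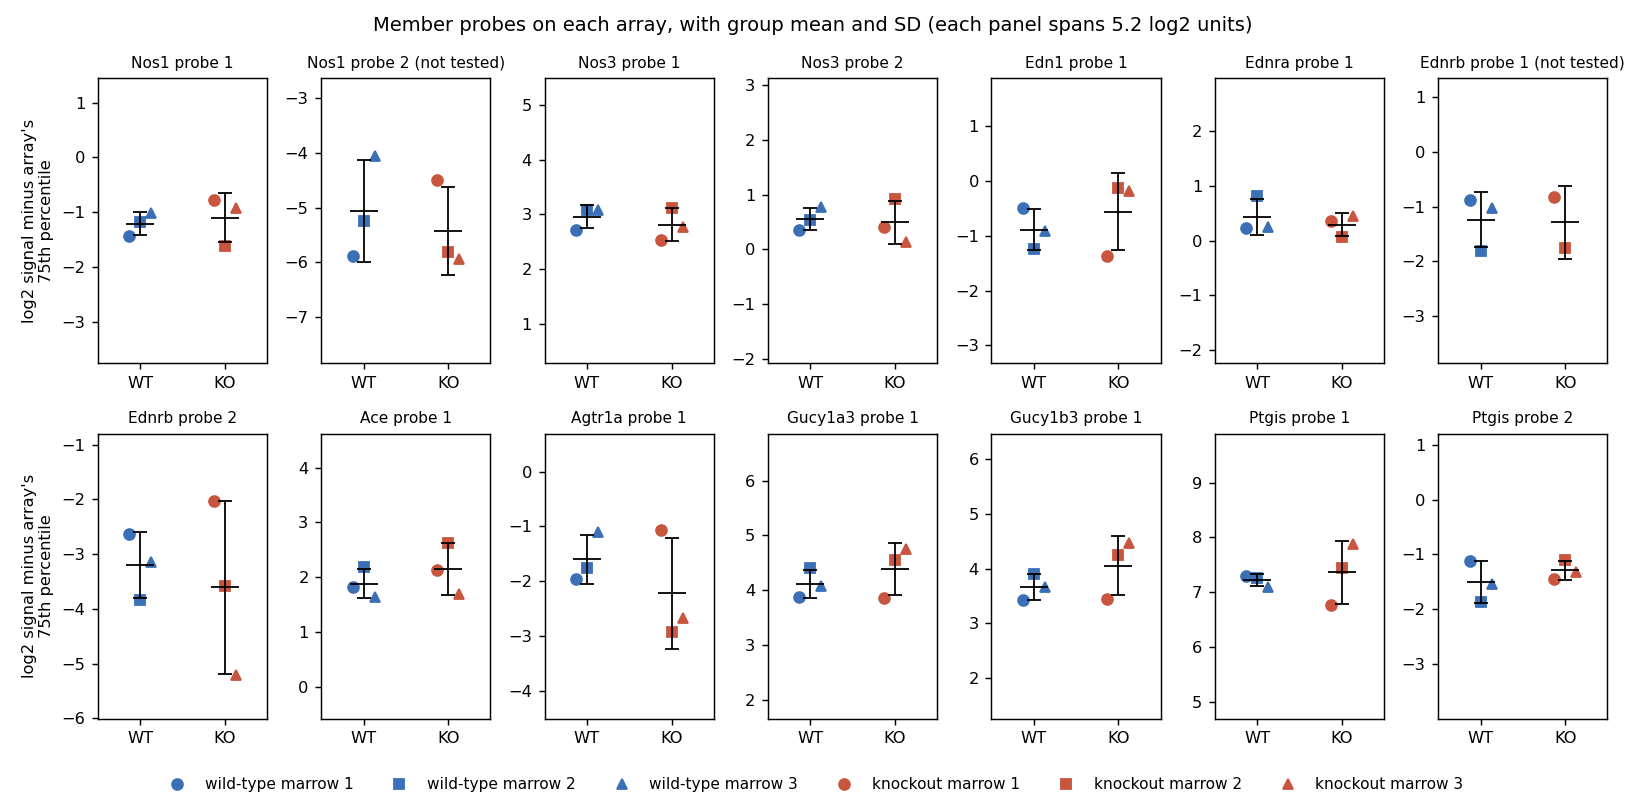
Relative log2 level (vertical axes, log2 units; every panel spans the same range) of each of the 14 member probes on wild-type (WT) and knockout (KO) marrow arrays. Symbols are single arrays, and black bars give the group mean and SD (n = 3, or n = 2 for knockout marrow at Ednrb probe 1, where 1 outlier spot was left out). Wild-type and knockout arrays overlap in every panel, and the widest spread is that of Ednrb probe 2 on the knockout arrays.

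**Figure D2:**
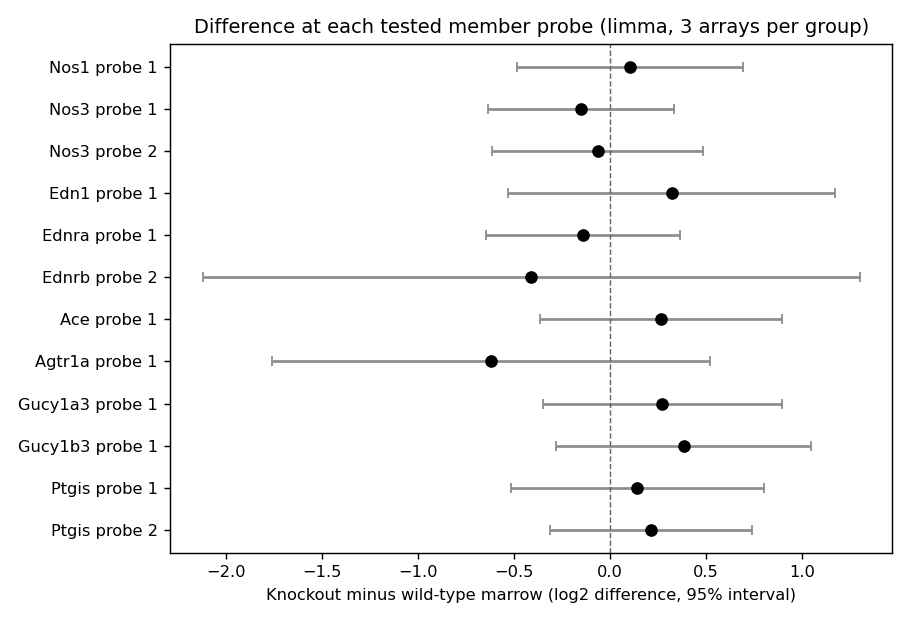
Difference, knockout minus wild-type marrow, in log2 units (horizontal axis) at the 12 tested member probes. Points are estimates from 3 arrays per group and bars 95% intervals of limma's moderated test; each interval crosses the dashed line at 0, and those of Ednrb probe 2 and Agtr1a are the widest.

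The endothelial synthase Nos3 had overlapping relative levels in the groups at both of its probes. At the first (chr5:23890038-23890097, plus strand) the relative log2 level was 2.72, 3.08 and 3.08 on WT1, WT2 and WT3 and 2.53, 3.12 and 2.77 on KO1, KO2 and KO3. The highest and the lowest of these 6 values were both knockout arrays. The difference was -0.15 ± 0.21 (SE, n = 3 per group; 95% interval -0.64 to 0.33; limma adjusted p = 0.85). The second probe, whose sequence is given above, was printed in 10 spots per array and read 0.36, 0.54 and 0.77 in the wild-type group, against 0.41, 0.92 and 0.13 in the knockout group. Repeat spots of this probe on 1 array had an SD of 0.038 to 0.068, far below the SD between arrays of 0.20 for wild-type and 0.40 for knockout marrow. Its difference was -0.064 ± 0.24 (SE; 95% interval -0.61 to 0.49; limma adjusted p = 0.95). KO2 was the highest array at both probes.

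Of the 2 probes named Nos1, for the neuronal synthase, 1 gave a measurable signal. This probe, at chr5:118404306-118404365 (plus strand), is tied in the deposited annotation to an Ensembl transcript and to no RefSeq one. Which transcript it measures was not settled. The probe read -1.43, -1.19 and -1.01 in the wild-type group, against -0.78, -1.62 and -0.92 in the knockout group. KO2 was the lowest and KO1 the highest of the 6, and the difference was 0.10 ± 0.25 (SE; 95% interval -0.48 to 0.69; limma adjusted p = 0.93). The probe of the RefSeq transcript, shown above, was well above background on 1 wild-type and 1 knockout array and was not tested. Its processed signals of 6.80, 8.95 and 24.6 intensity units in the wild-type group, against 14.6, 6.84 and 3.88 in the knockout group lay near the lower end of the scale, so a difference in Nos1 at that site was not detectable on these arrays.

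Edn1, the gene of the vasoconstrictor endothelin-1, varied more between mice of a group than between the groups. Its probe (chr13:42403101-42403160, plus strand) read -0.50, -1.25 and -0.91 in the wild-type group, against -1.38, -0.13 and -0.19 in the knockout group. The knockout arrays thus held the lowest of the 6 values (KO1) and the 2 highest (KO2 and KO3). The group means were -0.88 ± 0.38 and -0.56 ± 0.70 (SD, n = 3), and the difference was 0.32 ± 0.36 (SE; 95% interval -0.53 to 1.17; limma adjusted p = 0.82). This probe too was printed in 10 spots, whose SD within an array was 0.069 to 0.12, below the SD between arrays of either group. Without KO1 the difference was 0.73 (unadjusted p below 0.05; limma adjusted p = 0.21), and without WT1 it was 0.51. It was 0.10 without KO2, 0.13 without KO3 and 0.14 without WT2.

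Of the endothelin receptors, Ednra, the contractile ET-A receptor, was the more even. Its probe (chr8:80186985-80187044, minus strand) read 0.23, 0.81 and 0.25 in the wild-type group, against 0.36, 0.06 and 0.45 in the knockout group. WT2 stood highest and KO2 lowest, and the remaining 4 arrays lay between 0.23 and 0.45. The difference was -0.14 ± 0.22 (SE; 95% interval -0.65 to 0.36; limma adjusted p = 0.87).

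Ednrb, the ET-B receptor, could be read well on neither of its probes. Probe 2 (shown above) read -2.62, -3.83 and -3.14 in the wild-type group, against -2.03, -3.58 and -5.21 in the knockout group. KO1 was the highest and KO3 the lowest of the 6, and on KO3, at 6.46 intensity units, the spot was not well above background. The difference of -0.41 ± 0.73 (SE; 95% interval -2.12 to 1.30; limma adjusted p = 0.89) turned to 0.39 without KO3 and to 0.12 with normexp background correction. Probe 1 (chr14:104214484-104214543, minus strand) read -0.88, -1.81 and -1.02 in the wild-type group, against -0.81 and -1.75 on KO1 and KO2. On KO3 its single spot was marked as an outlier by the scanner software, at 15328 intensity units against 96.6 to 219 on the other arrays, and so the probe was left out of the test. On the 5 arrays with a value at both, the 2 probes of Ednrb put the arrays in the same order, from WT2 as the lowest through KO2, WT3 and WT1 to KO1 as the highest.

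Ace, which converts angiotensin I into angiotensin II, read 1.83, 2.18 and 1.65 in the wild-type group, against 2.13, 2.63 and 1.68 in the knockout group at its probe (chr11:105850398-105850457, plus strand). KO2 was the highest and WT3 the lowest, with KO3 next to WT3. The group means were 1.88 ± 0.27 and 2.15 ± 0.47 (SD, n = 3), and the difference was 0.26 ± 0.27 (SE; 95% interval -0.37 to 0.89; limma adjusted p = 0.80). It was 0.021 without KO2 and 0.14 without WT3, against 0.50 without KO3 and 0.41 without WT2.

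Agtr1a, the main angiotensin II receptor of mouse vessels, had the largest difference among the members as processed here. This difference was within the spread of the knockout arrays. The Agtr1a probe (chr13:30474638-30474697, plus strand) read -1.95, -1.75 and -1.10 in the wild-type group, against -1.06, -2.92 and -2.68 in the knockout group. KO2 and KO3 lay below every wild-type array, whereas KO1 was the highest of the 6. The group means were -1.60 ± 0.45 and -2.22 ± 1.01 (SD, n = 3), a difference of -0.62 ± 0.49 (SE; 95% interval -1.76 to 0.52; limma adjusted p = 0.74). Without KO1 it was -1.20 (unadjusted p below 0.05; limma adjusted p = 0.14). It was -0.27 without KO2, -0.39 without KO3 and -0.37 without WT3, and without KO2 and KO3 together it was 0.54. The signal was low on KO2 and KO3, at 51.0 and 37.3 intensity units. With normexp background correction the Agtr1a difference was -0.26, smaller in size than those of Gucy1b3 (0.32) and Edn1 (0.28).

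The guanylate cyclase subunits Gucy1a3 and Gucy1b3, which together form the nitric oxide receptor of smooth muscle, moved together from array to array. Gucy1a3 (probe at chr3:81896409-81896468, minus strand) read 3.88, 4.39 and 4.07 in the wild-type group, against 3.86, 4.55 and 4.76 in the knockout group. Gucy1b3 (probe at chr3:81836142-81836201, minus strand) read 3.43, 3.90 and 3.66 in the wild-type group, against 3.44, 4.25 and 4.46 in the knockout group. At both subunits KO3 was highest, then KO2, WT2 and WT3, and WT1 and KO1 were the lowest pair. The difference was 0.27 ± 0.27 for Gucy1a3 (SE; 95% interval -0.35 to 0.89; limma adjusted p = 0.79). For Gucy1b3 it was 0.38 ± 0.28 (SE; 95% interval -0.28 to 1.05), or 1.30-fold, and it had the smallest p of the members (limma adjusted p = 0.73). Without KO1 the differences were 0.54 and 0.69, with limma adjusted p of 0.25 and 0.17. Without KO3 they were 0.088 and 0.18. Gucy1a3 was at 0.15 without WT1 and at 0.41 without WT2.

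The subunit genes are neighbours, named Gucy1a1 and Gucy1b1 in RefSeq. In GRCm38.p6, a later build than that of the probes, they lie on chromosome 3, 17715 bases apart with 0 genes between them. Because their levels ran in parallel, the 250 bases before a start site of each are shown, from RefSeq, on the minus strand: chr3:82145651-82145900 for Gucy1a3 and chr3:82074712-82074961 for Gucy1b3. Capitals mark GGGCGG, the core of a GC box.
Gucy1a3 upstream window: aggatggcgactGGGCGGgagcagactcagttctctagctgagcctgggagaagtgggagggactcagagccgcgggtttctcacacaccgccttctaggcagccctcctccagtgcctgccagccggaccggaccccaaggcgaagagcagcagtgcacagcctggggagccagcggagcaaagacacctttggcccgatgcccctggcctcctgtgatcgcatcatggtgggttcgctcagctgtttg
Gucy1b3 upstream window: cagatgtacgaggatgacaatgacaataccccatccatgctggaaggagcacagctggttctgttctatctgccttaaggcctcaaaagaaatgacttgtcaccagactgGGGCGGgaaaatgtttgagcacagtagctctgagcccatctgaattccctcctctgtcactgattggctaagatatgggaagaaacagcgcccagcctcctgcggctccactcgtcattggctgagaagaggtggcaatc
Of the 10 genes, 7 had a start site in the RefSeq promoter table used here, with 9 windows in all. GGGCGG, searched on both strands, was found in 3 of the 9: 4 times before the first start of Ace, and once in each of the windows shown. Gucy1a3 had a second window (chr3:82145074-82145323), which held no GGGCGG. That both windows shown hold GGGCGG thus depends on which Gucy1a3 window is shown. GGGCGG was present in 32.7% of all 32851 windows of the same length. Whether these windows bear on the parallel levels was not tested. The E-box CACGTG bound by the circadian clock (6.02% of all windows), the D-box TTATGNAA (3.07%), the AP-1 site TGANTCA (6.75%) and the CArG box of smooth muscle genes (1.47%) were not matched in any of the 9 windows. A match of letters does not show that a factor binds there.

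Ptgis, the last enzyme of prostacyclin synthesis, was bright on every array at its RefSeq probe, with processed signals of 35591 to 66981 intensity units and no saturated spot. That probe (chr2:167028696-167028755, minus strand) read 7.30, 7.26 and 7.09 in the wild-type group, against 6.76, 7.44 and 7.88 in the knockout group. KO1 lay below and KO2 and KO3 above all of the wild-type arrays. The SD was 0.11 for wild-type and 0.57 for knockout marrow (n = 3), and the difference was 0.14 ± 0.28 (SE; 95% interval -0.52 to 0.80; limma adjusted p = 0.91). The second probe (chr2:167017317-167017376, minus strand) is tied to an Ensembl transcript alone. It read -1.11, -1.87 and -1.54 in the wild-type group, against -1.45, -1.11 and -1.32 in the knockout group, with a difference of 0.22 ± 0.23 (SE; 95% interval -0.31 to 0.74; limma adjusted p = 0.81). KO3, highest at the first probe, was the third highest at the second.

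The knockout arrays were the more spread out. The SD of the knockout group exceeded that of the wild-type group at 10 of the 12 tested member probes, and at 68.5% of all tested probes, so a wider knockout group was common on the whole array. The exceptions were Ednra and the second Ptgis probe. For several members KO1 lay on one side and KO2 and KO3 on the other: KO1 was the lower for Edn1, both cyclase subunits and the first Ptgis probe, and the higher for Agtr1a and Ednrb.

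Markers of the cell types in an arch sample also moved between arrays. As deviations from the mean of the 6 arrays, the 10 smooth muscle markers averaged -0.21, -0.014 and -0.28 on WT1, WT2 and WT3 and -0.20, 0.27 and 0.44 on KO1, KO2 and KO3. These are highest on KO3 and KO2, as are Gucy1a3, Gucy1b3 and the first Ptgis probe. When the smooth muscle mean was subtracted from each array the differences became -0.065 for Gucy1a3, 0.046 for Gucy1b3 and -0.20 for Ptgis. This subtraction shifts the difference of every probe by the same amount, so it cannot tell these probes from others. It moved the median of all tested probes to -0.32. The 10 adipocyte markers averaged 1.11, 0.34 and 1.48 in the wild-type group, against 1.26, -1.42 and -2.77 in the knockout group. They were lowest on KO3, then KO2, and Agtr1a was lowest on the same arrays in the reverse order. Ednrb probe 2 was lowest on KO3 but lower on WT2 than on KO2. The summed adipocyte level ran from 0.31 to 1.34 on the wild-type and from -2.65 to 1.23 on the knockout arrays (log2 deviation). The part of smooth muscle or fat content in the member values was not tested, and in such bulk tissue fewer cells of a type and less RNA per cell cannot be told apart.

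The 10 endothelial markers averaged 0.072, 0.21 and 0.037 in the wild-type group, against 0.10, -0.065 and -0.36 in the knockout group. KO3 was thus the lowest in this mean and also at the second Nos3 probe. At the first Nos3 probe KO1 was the lowest, and KO2, with a mean of -0.065, was the highest at both. The summed endothelial level ran from -0.17 to 0.33 on the wild-type and from -0.20 to 0.14 on the knockout arrays (log2 deviation). In that sum KO3 was the highest of the knockout arrays and KO1 the lowest. Single endothelial markers were split on KO3. Most, such as Cdh5 (-0.23), were at their lowest there, but Kdr (3.96, brightest probe) and Erg (0.35) were at their highest. With the endothelial mean subtracted, the Nos3 differences were 0.062 and 0.15 at its first and second probes, and that of Edn1 was 0.53. This subtraction too shifts every probe by the same amount, and it moved the median of all tested probes to 0.23. The part of endothelial content in the member values was not tested. All 10 markers of each of these 3 cell types were measured above background.

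The marker means of other cell types overlapped between the groups. The macrophage mean of 7 genes ran from -0.55 to 0.23 on the wild-type and from -0.68 to 1.02 on the knockout arrays, with KO2 highest and KO3 lowest. KO2 was also highest for Edn1, Ace, both Nos3 probes and the second Ptgis probe. It was lowest for Ednra, Agtr1a and the tested Nos1 probe. KO3 was the next highest for Edn1. Cardiac muscle markers ran from -0.70 to -0.024 and from -1.02 to 1.42, skeletal muscle markers from -1.46 to 2.16 and from -0.29 to 0.14, and fibroblast markers from -0.38 to 0.040 and from -0.050 to 0.28. Thymocyte and T cell markers ran from 0.23 to 0.36 and from -0.97 to 0.33, neuron and Schwann cell markers from -0.15 to 0.12 and from -0.15 to 0.13, and epithelial markers from -0.50 to 2.18 and from -0.89 to 0.089. Dbh, Epcam, Cdh1 and Pth, among the markers of sympathetic neurons, epithelium and parathyroid, did not meet the brightness filter. Of the markers tested, single genes did separate the groups: Lyz2 (1.64 ± 0.55, SE), Adgre1 (0.53 ± 0.27, SE), Cd8a (0.36 ± 0.17, SE) and Myh11 (0.78 ± 0.24, SE) with the knockout arrays above, and Esam (-0.38 ± 0.16, SE) and Elovl3 (-3.37 ± 1.09, SE) with them below. None passed the adjusted test, and these genes were named after their values were seen. Those above were 2 of 7 macrophage, 1 of 8 thymocyte and T cell and 1 of 10 smooth muscle markers. Those below were 1 of 10 endothelial and 1 of 10 adipocyte markers, and no marker of the other lists separated the groups. Over all tested probes the groups were separated at 7.58% with the knockout arrays above and at 6.14% with them below. Of the 7 macrophage markers 4 differences were above 0 and 3 below, and of the 8 thymocyte and T cell markers 2 were above and 6 below. Smooth muscle markers had 9 above and 1 below, endothelial markers 3 above and 7 below, and adipocyte markers 1 above and 9 below. The part of these cell types in the member values was not tested.

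**Figure D3:**
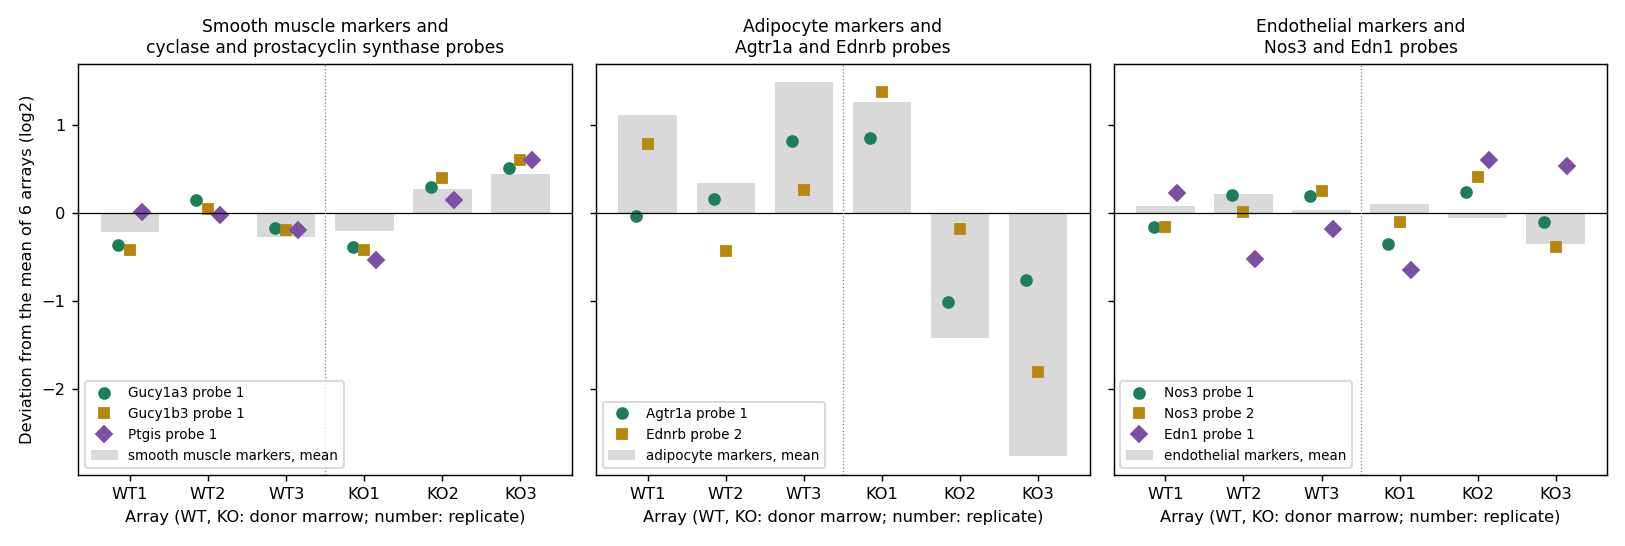
Deviation from the mean of the 6 arrays, in log2 units (vertical axis), on each array (horizontal axis; WT and KO name the donor marrow). Grey bars are the mean of 10 cell type markers, and symbols are member probes. Cyclase subunits and the first Ptgis probe rise with the smooth muscle bars on KO2 and KO3. Agtr1a lies low on the arrays where the adipocyte bars are lowest, but lower on KO2 than on KO3. Ednrb probe 2 is lowest on KO3 but lower on WT2 (-0.43) than on KO2 (-0.18).

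Other genes of the same pathways were read from 5 lists, at the brightest tested probe of each gene. Of 71 listed genes, 64 were tested, 0 passed the adjusted test in limma, and 5 had an unadjusted p below 0.05, which is 7.81% against 8.71% of all tested probes. The groups were separated with the knockout arrays above at 4 genes (6.25%, against 7.58% of all tested probes) and below at 1 (1.56%, against 6.14%). Of the 64 differences 34 were above 0 and 30 below.

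Among 15 tested genes of nitric oxide synthesis and its cofactor supply, 10 differences were above 0 and 5 below, with a median of 0.19, and none had an unadjusted p below 0.05. All 3 knockout arrays lay above the wild-type arrays for Cav1, the caveolar protein that holds Nos3 inactive (0.38 ± 0.18, SE; limma adjusted p = 0.60), and for Spr, sepiapterin reductase of tetrahydrobiopterin synthesis (0.21 ± 0.15, SE; limma adjusted p = 0.71). These genes were named after their values were seen. Arg1 and Arg2, arginases that use the same substrate as the synthases, did not meet the brightness filter.

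The 17 tested genes of cyclic GMP signalling divided into 9 above 0 and 8 below, with a median of 0.022. Npr1, the receptor guanylate cyclase for natriuretic peptides, read -1.38, -1.10 and -1.37 in the wild-type group, against -0.99, -0.56 and -0.96 in the knockout group. All knockout arrays lay above all wild-type arrays, and the difference was 0.45 ± 0.18 (SE; 95% interval 0.017 to 0.88; unadjusted p below 0.05; limma adjusted p = 0.57). The cyclic GMP-dependent kinase Prkg2, named after its values were seen, had a difference of -1.02 ± 0.41 (SE; limma adjusted p = 0.57) and groups that overlapped. Its signal was low, well above background on 2 of the 3 knockout arrays, with KO3 the lowest at -5.51.

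In the angiotensin list 7 of 11 tested genes were above 0 and 4 below, with a median of 0.038. Agt, angiotensinogen, the precursor of angiotensin II, read -1.25, -0.999 and -1.43 in the wild-type group, against -0.69, -0.72 and -0.51 in the knockout group. Each knockout array lay above each wild-type array, with a difference of 0.59 ± 0.17 (SE; 95% interval 0.18 to 0.99; unadjusted p below 0.05; limma adjusted p = 0.47). Enpep, aminopeptidase A, which cleaves angiotensin II, read -2.01, -2.37 and -1.77 in the wild-type group, against -2.47, -4.12 and -2.90 in the knockout group. The knockout arrays all lay below, KO1 by the least, with a difference of -1.11 ± 0.41 (SE; 95% interval -2.06 to -0.16; unadjusted p below 0.05; limma adjusted p = 0.54). The receptor genes Agtr2 and Agtr1b did not meet the brightness filter.

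The endothelin list had 7 tested genes, 3 above 0 and 4 below with a median of -0.046, and none had an unadjusted p below 0.05. Edn3 was not well above background on any array. In the prostanoid list 5 of 14 tested genes were above 0 and 9 below, with a median of -0.16. Tbxa2r, the receptor of thromboxane, which opposes prostacyclin, had a difference of 0.61 ± 0.24 (SE; unadjusted p below 0.05; limma adjusted p = 0.55) with overlapping groups, and was named after its values were seen.

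**Figure D4:**
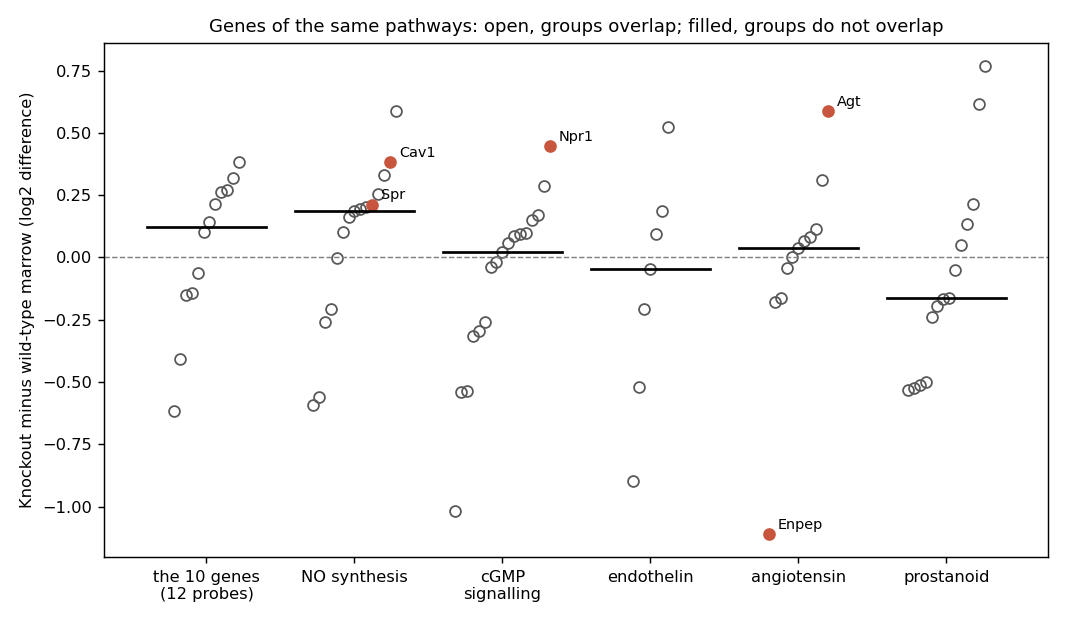
Difference, knockout minus wild-type marrow, in log2 units (vertical axis) for the 12 tested member probes and the 64 tested genes of 5 pathway lists. Each circle is a probe or gene, horizontal lines are medians, and filled circles mark those whose groups of 3 arrays do not overlap: Cav1, Spr, Npr1 and Agt above 0 and Enpep below.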

How the data were processed

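RNA of 6 aortic arches was read on 6 Agilent one-colour arrays. The deposited processed signal is an intensity, background-subtracted per the file headers by Feature Extraction 10.7.3.1 and not scaled between arrays. The deposited series table holds the same intensity values to 3 digits (within 0.5%; column medians 32.1 to 54.3), which settles its scale, centring and direction. From these, log2 values minus each array's 75th percentile over spots that were not controls were computed, outlier spots were removed and repeat spots averaged per probe. Tests took in a probe where at least a 0.5 share of its spots was well above background on all 3 arrays of a group and no array lacked a value. Tests used limma 3.58.1 in R 4.3.3 on all 38341 such probes, two-sided, with Benjamini-Hochberg adjustment, and were tested on simulated data. The number of arrays limits the precision. The members, gene lists and markers were chosen with earlier results of these data known. Beside the members, the rule named pathway genes that passed the test, and up to 3 per list and direction with an unadjusted p below 0.05 and groups that did not overlap. Alternatives changed background correction, scaling, filter, variance model, arrays used and outlier removal.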

Additional observations from a re-analysis of the deposited data

How the results depend on the processing

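No member and no pathway gene passed the adjusted threshold in any of 19 alternatives, and 25 of 227 member differences changed sign. Probes called on the whole array, 1 in the reported analysis, numbered 4 with normexp background correction, 2 with median centring, 0 when signal was required on all 6 arrays, 2 with trended robust variance, 2 with array weights, 8 with the endothelial mean subtracted, 2 without KO2 and KO3 together, and 1 to 2 when 1 array was left out. Signs reversed with normexp for Ednrb probe 2 (0.12) and with array weights for Nos1 probe 1 (-0.10) and Nos3 probe 2 (0.0072). With array weights 2 members, Agtr1a and Gucy1b3, had an unadjusted p below 0.05, beside 18.7% of all probes. Subtracting the endothelial mean reversed Nos3 probe 1 (0.062), Nos3 probe 2 (0.15) and Ednra (0.072). Subtracting the smooth muscle mean reversed Nos1 probe 1 (-0.23), Edn1 (-0.017), Ace (-0.074), Gucy1a3 (-0.065), Ptgis probe 1 (-0.20) and Ptgis probe 2 (-0.12). Without KO2 and KO3 together, Edn1 (-0.49), Ednrb probe 2 (1.17), Agtr1a (0.54), Gucy1a3 (-0.26), Gucy1b3 (-0.23) and Ptgis probe 1 (-0.46) reversed. With 1 array left out, Nos1 probe 1 ran from -0.061 to 0.36, Nos3 probe 2 from -0.28 to 0.11, Ednra from -0.24 to 0.049, Ednrb probe 2 from -1.20 to 0.39 and Ptgis probe 1 from -0.12 to 0.44. The others kept their sign: Nos3 probe 1 ran from -0.31 to -0.011, Edn1 from 0.10 to 0.73, Ace from 0.021 to 0.50, Agtr1a from -1.20 to -0.27, Gucy1a3 from 0.088 to 0.54, Gucy1b3 from 0.18 to 0.69 and Ptgis probe 2 from 0.034 to 0.41. Subtracting a marker mean shifts every difference by the same amount, and the causes of the other reversals were not tested. Replicate numbers did not pair the arrays: deviations of same-numbered arrays correlated at 0.12, 0.05 and -0.28, WT2 and WT3 correlated best with KO3 and KO1, and with the replicate number as a block 1 probe was called on the whole array and 0 members. Keeping outlier spots, an alternative chosen after seeing the data, let Ednrb probe 1 be fitted, at 2.38 ± 1.81 (SE; limma adjusted p = 0.73). Without the brightness filter Nos1 probe 2 had a difference of -0.36 ± 0.57 (SE; limma adjusted p = 0.87).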
